A study of Mus musculus with 4 samples.

Results

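Open chromatin that appeared 1 to 10 kb away from protein-coding promoters in *Smyd1-KO* hearts is described here. The members were the gained ATAC-seq peaks whose nearer edge lay more than 1 kb and at most 10 kb from the nearest transcription start site (TSS) of a protein-coding gene and that touched no coding sequence or untranslated region (GENCODE M21, mm10). There were 3533 such flanking peaks among 25745 gained peaks, or 13.7% (95% exact interval 13.3 to 14.1). A further 11331 gained peaks (44.0%) lay within 1 kb of a TSS, 10440 (40.6%) lay beyond 10 kb and 441 lay in the flanking distance but touched coding or untranslated exons. The list of lost peaks held 106 regions, of which 12 (11.3%, interval 5.99 to 18.9) were flanking by the same rule, and the difference of 2.40 percentage points between the lists had an interval of -5.04 to 7.15.

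The study compared whole hearts of wild-type (WT) embryos with those of *Smyd1-KO* embryos, homozygous knockouts from heterozygous *Smyd1*+/- mice in which the loss is not confined to one cell type, and both sexes were used. Hearts were taken at embryonic day 9.5 (E9.5). Each genotype had 2 libraries, and each library was made from 4 pooled hearts and 40000 viable dissociated cells. Peaks were called after the 2 libraries of each genotype had been pooled, and a peak was kept as gained when its tags, the read ends counted in it, were at least 2-fold higher in the *Smyd1-KO* pool than in the WT pool. The lists therefore hold 1 value per peak and no value per library, so no difference between genotypes could be set against the spread of replicates. They also hold no unchanged peak, so what flanking gained peaks share with open chromatin in general cannot be told apart from what they share as gained peaks. The whole heart contains cardiomyocytes, endocardial, endothelial, epicardial, smooth muscle and blood cells, and in such a mixture more cells of one type and more accessibility per cell cannot be told apart. The lists carry no read from the deleted part of *Smyd1* and so give no check of the knockout itself.

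In ATAC-seq the Tn5 transposase inserts adapters into DNA that nucleosomes leave free, which at most genes is the promoter, and away from it enhancers, insulators and promoters of other transcripts. Enhancers next to heart genes are bound by factors such as GATA4, MEF2, TEAD1, MEIS1, NKX2-5 and HAND2, while CTCF, the protein that anchors chromatin loops, binds insulators and some promoter-near sites. SMYD1 is a muscle-restricted SET and MYND domain protein of striated muscle and the early heart.

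The motif matches printed first show the letters behind the motif counts given further on. They are examples, since 67.7% of flanking peaks held none of these 4 motifs. For CTCF, MEF2, GATA and TEAD, the match is given in capitals in its mm10 (GRCm38) surroundings, 5′ to 3′ on the strand that reads the motif, in the flanking peaks with the highest scores that held one. A match is a run of letters and not a measured binding site.
*Zfp286* CTCF, chr11:62756907-62756932, plus strand: ctccgctCCACCAGAGGGCgcagggg
*Stard10* CTCF, chr7:101310783-101310808, plus strand: gccacaaCCACTAGGGGGCtacaagg
*Gadd45b* MEF2, chr10:80940825-80940849, plus strand: acaacactCTAAATATAGcctggga
*Dab2ip* MEF2, chr2:35588540-35588565, plus strand: gtggggagTTAAAAATAGtccttgta
*1700015G11Rik* GATA, chr7:52017960-52017985, minus strand: ttaacaccaaAGATAAccagatggtg
*Crb2* GATA, chr2:37780445-37780470, plus strand: ggatttgtaaAGATAAgcagtggccc
*Mnt* TEAD, chr11:74832217-74832242, minus strand: gcacacgcaaCATTCCagccaagagc
*Myo1c* TEAD, chr11:75654124-75654149, minus strand: ggcgcagccgCATTCCtaggatgccc

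The same was done for some flanking peaks of heart muscle genes, hypoxia genes and signalling genes on the gene lists described further on. Among the matches not printed was a CTCF match at *Rpl14*, a ribosomal protein gene, in a peak with 323 tags. *Myh7*, the slow beta-myosin heavy chain of the embryonic ventricle, had a MEF2 match in each of its 3 flanking peaks, and the farthest of them also held a GATA and a TEAD match.
*Myh7* MEF2, chr14:54996976-54997001, plus strand: agcaagtgCTATAAATAAaaagggag
*Myh7* MEF2, chr14:55004105-55004130, plus strand: ctaggttcCTAATAATAGccatggct
*Myh7* MEF2, chr14:55004697-55004722, plus strand: ctcccctcCTATTATTAGccctgagt
*Myh7* GATA, chr14:55004655-55004680, plus strand: cattcccgtgAGATAAcaatgcactt
*Nkx2-5* GATA, chr17:26850814-26850839, plus strand: cctccggggaAGATAAagtaatcgat
*Actc1* GATA, chr2:114057646-114057671, minus strand: ggaacagctgAGATAAgtgactgcta
*Irx5* TEAD, chr8:92355989-92356014, minus strand: tcgggctgacCATTCCgggttcgggg
*Srf* TEAD, chr17:46553278-46553303, minus strand: aaggcttttgCATTCCtcccgccagc
*Adm* CTCF, chr7:110630343-110630368, minus strand: atggtggCCAGCAGGGGGCgctacag
*Cxcl12* CTCF, chr6:117166986-117167011, plus strand: gataagaCCACCAGAGGGCgccggag

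Flanking sequence gained open regions more densely than the rest of the genome and far less densely than promoters. Per Mb of sequence that meets the same distance and exon rule there were 7.88 flanking peaks, against 109 per Mb within 1 kb of a TSS and 5.10 per Mb beyond 10 kb. The density was thus 1.55 times that beyond 10 kb (interval 1.49 to 1.61), and the density within 1 kb was 13.8 times the flanking one (13.3 to 14.3). These intervals, like all others given, cover counting error only, since peaks are not replicates of the hearts, and windows were not filtered for how well reads map to them.

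The density did not fall steadily with distance. It was 8.56 per Mb from 1 to 2 kb (interval 7.88 to 9.28), 6.59 per Mb from 3 to 4 kb (5.93 to 7.29) and 9.52 per Mb from 7 to 8 kb (8.61 to 10.5). The bins from 2 to 5 kb were the lowest and overlapped in their intervals, and every 1-kb bin lay above the value beyond 10 kb. The outermost bin, 9 to 10 kb, had 8.29 peaks per Mb (7.39 to 9.27).

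The scores followed distance more simply. The score is the tag total that HOMER gives a peak, read here as that of the combined *Smyd1-KO* libraries and not as the fold change over WT. It comes in steps of 0.5 and is therefore not a raw count, and whether it was scaled to a common depth is not given in the sources used here, so that scores are compared only within the gained list. Flanking peaks had a median score of 120 tags (interval 116.5 to 124, quartiles 73 and 207.5, range 29 to 1582). Peaks within 1 kb had a median of 420 tags and those beyond 10 kb a median of 84.5 tags. Along the flank the median went from 158.75 tags at 1 to 2 kb (144 to 176) through 118.5 tags at 3 to 4 kb (107 to 132.5) to 103.5 tags at 9 to 10 kb (87.5 to 114). The rank correlation of score with distance over the 3533 peaks was weak, with Spearman's rho = -0.18, and that of score with GC content was 0.54. These are descriptions over peaks of the same pooled libraries.

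**Figure D1:**
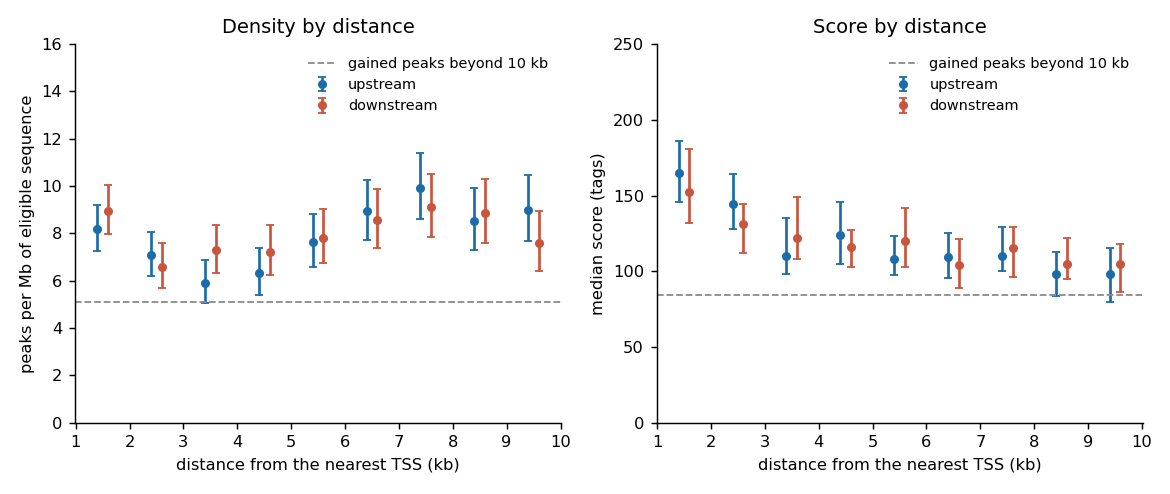
Gained peaks per Mb of eligible sequence (left) and median score in tags (right) in bins of 1 kb from the nearest TSS, with upstream peaks in blue and downstream peaks in red. Bars are 95% counting intervals and the dashed line is the value of gained peaks beyond 10 kb; both sides dip in density at 2 to 5 kb, and both lose score between 1 and 4 kb.

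From 800 to 1000 bp, just outside the inner limit, 215 peaks that touched no coding or untranslated exon had a median score of 209.5 tags (183 to 245), and from 1000 to 1200 bp, just inside, 146 peaks had a median of 165.25 tags (137 to 220.5). The number and the median were thus lower just inside this limit than just outside it, with intervals of the medians that overlap. At the outer limit, the 307 peaks from 9000 to 10000 bp had a median of 103.5 tags (87.5 to 114) and the 298 peaks from 10000 to 11000 bp a median of 107.5 tags (99.5 to 120.5).

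**Figure D2:**
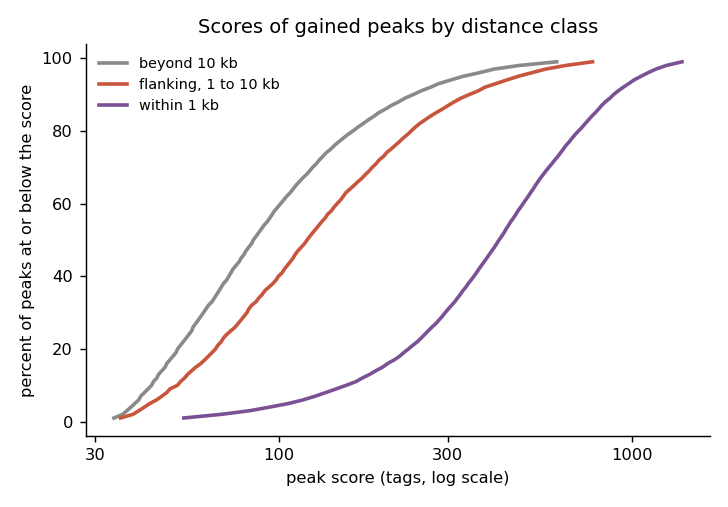
Percent of gained peaks at or below each score (tags, log scale) for peaks beyond 10 kb (grey), flanking peaks (red) and peaks within 1 kb (purple), from the 1st to the 99th percentile. The flanking curve lies between the others, with a median of 120 tags against 84.5 and 420 tags.

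Flanking peaks lay as often upstream as downstream. There were 1772 upstream peaks (50.2%, interval 48.5 to 51.8) and 1761 downstream peaks, and upstream sequence made up 50.6% of the eligible sequence. The density upstream was 7.81 per Mb and downstream 7.96 per Mb, a ratio of 0.980 (0.917 to 1.05). The scores of both sides overlapped in their intervals, with medians of 120.75 tags upstream (115 to 126.5) and 119 tags downstream (114.5 to 124.5). The share whose gene also had a gained promoter peak was lower upstream, with a difference of -4.17 percentage points for upstream minus downstream (interval -7.38 to -0.956). The share of CpG-rich peaks, as defined further on, was higher upstream, with 11.4% (9.96 to 13.0) against 8.40% downstream (7.15 to 9.80).

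A gained peak within 1 kb of a TSS of the same gene, here called the promoter peak, accompanied 2155 of the 3533 flanking peaks, or 61.0% (59.4 to 62.6). The other 1378 flanking peaks had none. By side, 1044 upstream and 1111 downstream peaks had a promoter peak, and 728 upstream and 650 downstream peaks had none. Genes with a promoter peak owned 55.6% of the eligible sequence. Their flanks held 8.65 peaks per Mb and those of the other genes 6.92 per Mb, a ratio of 1.25 (1.17 to 1.34). Flanking peaks were thus somewhat denser beside genes with a gained peak at any annotated TSS, but 39.0% of them lay beside genes without one. With 1 TSS per gene the share with a promoter peak was 43.5%, and the density ratio was not recomputed.

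The strength of the promoter peak said little about the strength of the flanking peak. Among the 2155 pairs, belonging to 1741 genes, the median flanking score was 122 tags and the median promoter score 475 tags. The rank correlation of the scores was 0.03 over pairs, some of which share a promoter peak. The flanking peak reached a median of 0.294 of its promoter peak (0.280 to 0.313, quartiles 0.147 and 0.586), with 0.400 at 1 to 3 kb and 0.261 at 3 to 10 kb. With only 1 TSS per gene, which left 2358 flanking peaks, the ratio was 0.452 (0.412 to 0.489), and among peaks at or above the median score of the gained list it was 0.608 (0.573 to 0.648). In 219 pairs (10.2%, 8.92 to 11.5) the flanking peak outscored the promoter peak. Flanking peaks without a promoter peak had a median of 116.5 tags (110.5 to 122.5), close to the 122 tags (117.5 to 127.5) of those with one.

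**Figure D3:**
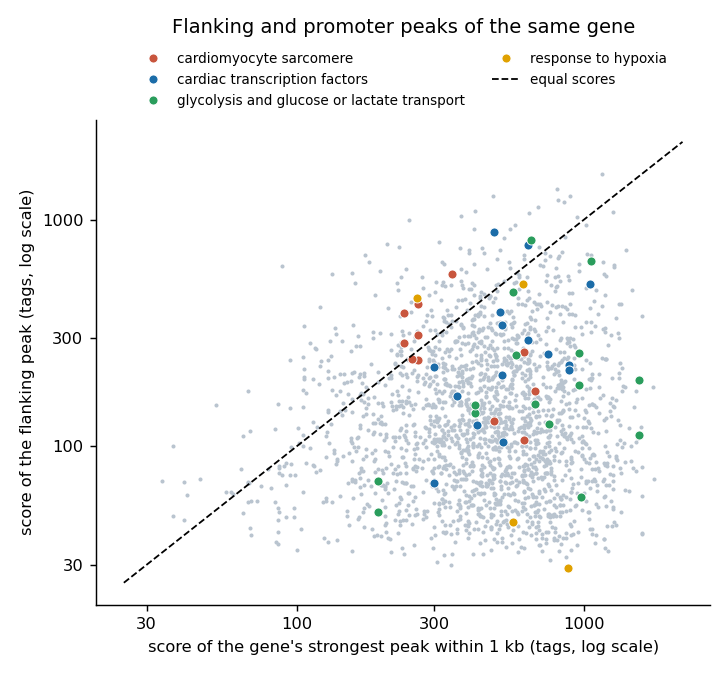
Score of each flanking peak against the strongest gained peak within 1 kb of a TSS of the same gene, both in tags on log scales, for the 2155 flanking peaks that have one (grey points), with 4 gene lists in colour. Most points lie under the dashed line of equal scores, and 219 lie above it.

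Most flanking peaks lay inside a gene. The body of the gene with the nearest TSS held 2050 of them (58.0%, 56.4 to 59.7), the body of another protein-coding gene held 112 and 1371 (38.8%) lay outside protein-coding genes. Among upstream peaks 743 (41.9%) were inside their own gene, because the nearest TSS was an internal one and a TSS of the same gene lay farther upstream. Of the downstream peaks 1307 (74.2%) were inside their own gene, and the others lay past its annotated end.

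Some flanking peaks sat at starts of noncoding transcripts. A TSS of a noncoding gene was within 1 kb of 233 flanking peaks (6.59%, 5.80 to 7.46) and inside 56 of them, and by type these were most often lincRNAs (61), antisense RNAs (47), processed transcripts (32), loci of the type TEC (22) and miRNAs (17). Their median score was 203.5 tags (177.5 to 231), against 117 tags (113 to 120.5) for the 3300 peaks farther from such a TSS. The peak nearest *Mir210*, the miRNA induced in hypoxia, is an example. It lay 231 bp from the annotated miRNA start and 4086 bp downstream of *Rassf7*, at chr7:141221724-141221872, and had 1369 tags. *Mir22*, a miRNA abundant in heart muscle, had a peak at 530 bp with 573 tags (chr11:75463038-75463186, nearest protein-coding gene *Tlcd2*). These examples were chosen after the values of the 17 miRNA peaks were seen, and the lowest of the 17 had 39 tags.

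By base composition flanking peaks resembled distal peaks more than promoters. Their median GC content was 54.4% (quartiles 49.7 and 59.1), against 66.4% within 1 kb, 52.3% beyond 10 kb and 43.6% in the flanking windows without a gained peak. The observed-to-expected ratio of CpG dinucleotides had a median of 0.232 in flanking peaks, 0.797 within 1 kb and 0.209 beyond 10 kb. Peaks with at least 55% GC and a CpG ratio of at least 0.6, called CpG-rich, numbered 350 (9.91%, 8.94 to 10.9) among flanking peaks, compared with 71.8% within 1 kb and 5.28% beyond 10 kb. Over 50% of the bases were repeat-masked in 146 flanking peaks (4.13%), whereas 27.6% of the flanking windows without a gained peak were masked to that extent.

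The CpG-rich flanking peaks had the highest scores and were the ones most often near other transcript starts. Their median was 324.5 tags (295 to 349.5), and that of the 3183 others was 111 tags (108 to 114.5). A noncoding TSS lay within 1 kb of 75 of the 350 CpG-rich peaks (21.4%, 17.2 to 26.1) and of 158 of the others (4.96%, 4.24 to 5.78). An mRNA start annotated by RefSeq lay within 1 kb of 47 CpG-rich peaks (13.4%, 10.0 to 17.5), although no GENCODE protein-coding TSS did, and of 113 others (3.55%, 2.93 to 4.25). With either kind counted, 104 of the 350 CpG-rich peaks and 258 of the 3183 others were near a start. At equal CpG class the order by distance remained, since CpG-rich peaks had a median of 466.5 tags within 1 kb, 324.5 tags in the flanks and 251 tags beyond 10 kb, and the other peaks had medians of 273.5, 111 and 81.5 tags.

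Flanking peaks differed from promoter peaks in the motifs of CTCF, of heart factors and of general promoter factors. The search used 18 fixed strings on both strands of each peak, and all peaks have the same length. Matches to different strings were counted separately and may overlap. CTCF, MEF2 and the CArG box are searched as their usual consensus, GATA as AGATAA, TEAD as CATTCC, MEIS as TGACAG, NKX2-5 as CACTTNA, the HAND E-box as CATCTG, AP-1 as TGANTCA, SP1 as GGGCGG, ETS as CCGGAAG, NFY as AGCCAAT, KLF as CCACACCC, NRF1 as GCATGCG, YY1 as AAGATGGCG, TBX as AGGTGTGA and the hypoxia factor HIF as TACGTGC. The last string was a reordered form of the GATA string. The shares are compared with those of all flanking windows of the same length without a gained peak, and with those of the same windows weighted to the GC content of the peaks.

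CTCF stood farthest from its windows. A CTCF match was found in 294 flanking peaks (8.32%, 7.43 to 9.28), against 0.0941% of the windows and 0.188% of the GC-weighted windows, or 44.3 times the latter. Within 1 kb 1.19% of gained peaks had a match and beyond 10 kb 6.12%. The flanking share was 7.13 percentage points above that within 1 kb (6.24 to 8.10) and 2.20 points above that beyond 10 kb (1.21 to 3.26). Among peaks that were not CpG-rich the order was the same, with 8.77% in the flanks (7.81 to 9.80), 3.09% within 1 kb (2.52 to 3.75) and 6.19% beyond 10 kb (5.72 to 6.68). CpG-rich peaks had 4.29% in the flanks (2.42 to 6.97), 0.443% within 1 kb (0.310 to 0.613) and 4.90% beyond 10 kb (3.25 to 7.05). Among these the flanks thus did not exceed distal peaks.

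Within the flanks, CTCF matches were more frequent where the promoter had no gained peak. They were found in 9.87% of flanking peaks without a promoter peak and in 7.33% of those with one, with a difference of -2.54 percentage points for peaks with minus peaks without one (-4.51 to -0.658). Upstream and downstream shares were 8.52% and 8.12%. Of the 294 matches 165 read on the strand of the gene (56.1%, 50.2 to 61.9). With the peaks split at the quartiles of the score, matches were most frequent in the inner groups, at 10.1% (8.18 to 12.3) and 10.9% (8.89 to 13.1), and rarer in the lowest group, at 6.24% (4.73 to 8.04), and the highest, at 6.10% (4.62 to 7.89). Outside chromosome 18 the strongest, with 996 tags, lay 3542 bp downstream of a TSS of *Zfp286*, a zinc-finger gene, whose promoter peak had 246.5 tags. The next, with 780 tags, lay 6254 bp upstream of *Stard10*, a lipid transfer protein gene.

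GATA matches were found in 385 flanking peaks (10.9%, 9.89 to 12.0), in 9.05% of the windows and in 4.05% of the GC-weighted windows. The reordered string AAGTAA, which has the same letters as the GATA string, was found in 3.76% of flanking peaks, in 9.28% of the windows and in 3.61% of the GC-weighted windows. Against GC-weighted windows the ratio was 2.69 for GATA and 1.04 for the reordered string, and against unweighted windows it was 1.204 and 0.406. Peaks beyond 10 kb held more GATA matches, 15.6%, and peaks within 1 kb fewer, 2.06%. Flanking minus distal share came to -4.71 percentage points (interval -5.92 to -3.44). GATA matches became rarer with score, from 14.6% in the lowest of the 4 score groups (12.4 to 17.1) to 8.70% in the highest (6.93 to 10.8).

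TEAD matches were found in 485 flanking peaks (13.7%, 12.6 to 14.9), against 7.80% of the windows, 8.12% of the GC-weighted windows, 15.3% of peaks beyond 10 kb and 5.27% within 1 kb. MEF2 matches were found in 88 flanking peaks (2.49%, 2.0 to 3.06), which was under the 3.04% of all windows but above the 0.527% of GC-weighted windows, so that the direction for this AT-rich motif depends on how windows are weighted. The MEF2 share beyond 10 kb was 2.83%, and the difference of -0.335 percentage points from the flanks had an interval of -0.908 to 0.308. Outside chromosome 18, the highest-scoring MEF2 match lay 9889 bp downstream of *Gadd45b*, a stress-response gene, with 451.5 tags. The next lay 5619 bp downstream of a TSS of *Dab2ip*, a Ras GTPase-activating protein gene, with 449.5 tags.

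Other strings divided in the same way into those of distal and those of promoter sequence. MEIS matches were found in 17.1% of flanking peaks (15.8 to 18.4) and 22.0% of distal ones, NKX2-5 in 8.58% and 10.5%, the HAND E-box in 11.6% and 13.8%, and AP-1 in 4.81% and 6.21%. The windows had 9.63% for MEIS, 8.25% for NKX2-5, 11.4% for the HAND E-box and 4.36% for AP-1, and the GC-weighted windows 10.8%, 5.58%, 12.0% and 3.62%. Both shares for the HAND E-box lie within the interval of the flanking peaks (10.5 to 12.7). The strings of promoters were rarer in the flanks than within 1 kb. SP1 was found in 12.7% of flanking peaks against 53.8%, ETS in 1.59% against 9.64% and NFY in 2.94% against 7.86%, while windows had 1.597%, 0.426% and 1.71% and GC-weighted windows 7.31%, 1.19% and 1.42%. Matches to the CArG box, KLF, NRF1, TBX, HIF and YY1 were few, at 1.08%, 1.64%, 1.08%, 0.679%, 0.340% and 0.142% of flanking peaks. In GC-weighted windows these were 0.513%, 2.37%, 0.903%, 0.849%, 0.304% and 0.507%. KLF lay above the unweighted windows, at 1.455 times, and below the GC-weighted ones, at 0.694 times, so that its direction too depends on the weighting. YY1 was at 1.52 and 0.279 times, but its share rests on 5 peaks. The interval of that share (0.0460% to 0.330%) includes the 0.0932% of unweighted windows and not the 0.507% of GC-weighted ones. Among CpG-rich flanking peaks alone, SP1 reached 50.6% (45.2 to 55.9), against 62.9% (61.8 to 63.9) of CpG-rich peaks within 1 kb and 47.9% (43.7 to 52.2) of those beyond 10 kb. Of CTCF, MEF2, GATA and TEAD, 2393 flanking peaks (67.7%) held none.

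**Figure D4:**
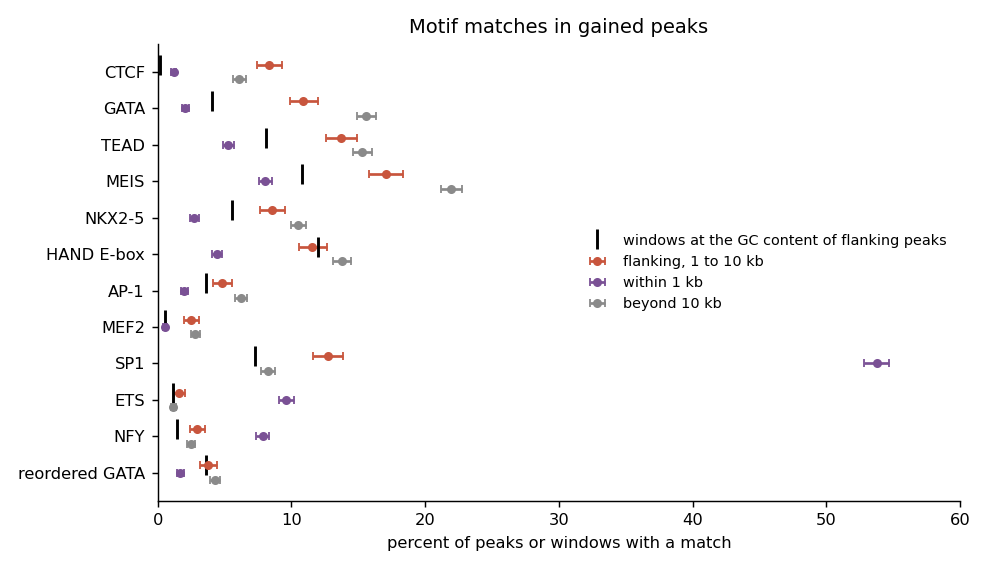
Percent of gained peaks with a match to each motif, for flanking peaks (red), peaks within 1 kb (purple) and peaks beyond 10 kb (grey), with 95% counting intervals, and for flanking windows without a gained peak weighted to the GC content of flanking peaks (black ticks). CTCF is the motif for which flanking peaks exceed both other classes, and SP1 the one with the widest gap to promoters.

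By gene, 2943 of 21938 protein-coding genes had at least 1 flanking gained peak, a background of 13.4%. A promoter peak was present at 48.1% of genes and both at 7.94%. Of the 10561 genes with a promoter peak 16.5% (15.8 to 17.2) had a flanking peak, and of the 11377 others 10.6% (10.0 to 11.1). A single flanking peak was found at 2466 genes, 2 at 383, 3 at 78, 4 at 13 and 5 at 3 genes.

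The genes with 5 were *Ddc*, *Grb10* and *Tns1*. *Grb10*, an imprinted inhibitor of growth factor signalling, had all 5 inside its body with 75 to 152.5 tags and no promoter peak. *Ddc*, the aromatic amino acid decarboxylase next to it on chromosome 11, had 5 with 58 to 220.5 tags and a promoter peak of 367.5 tags, and 2 of its 5 were over 50% repeat-masked. *Tns1*, the focal adhesion protein tensin, had 5 with 109.5 to 277.5 tags. These numbers grow with the sequence a gene offers, which was 63.8 kb for *Grb10*, 69.0 kb for *Ddc* and 124 kb for *Tns1*. Others with 4 peaks and less sequence were *Nr2f2*, the atrial and venous regulator COUP-TFII, with 20.9 kb, and *Speg*, a kinase of striated muscle, with 33.7 kb. *Nr2f2* had no promoter peak, and its 4 flanking peaks had 143.5, 184, 233.5 and 660.5 tags. *Zmiz1*, a transcriptional coactivator, had 4 peaks with 252 to 1038 tags. Of the 13 genes with 4 peaks, the others named by the highest summed score were *Actn4*, *Macf1*, *Gpr107* and *Ablim1*, and 6 more tied with them in number.

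The 10 highest-scoring flanking peaks that were not mostly repeats lay next to *Mnt*, *Rassf7*, *Igf2bp3*, *Glis2*, *Mllt10*, *Mex3b*, *Clec11a*, *Scd2*, *Zfp869* and *Foxj2*. The highest, with 1582 tags, lay 1294 bp downstream of a TSS of *Mnt*, an antagonist of MYC, inside the gene at chr11:74832214-74832362. It held 15 CpG dinucleotides and exceeded the promoter peak of the same gene, which had 1154 tags. The peak of *Igf2bp3*, an RNA-binding protein of embryonic growth, lay 3056 bp upstream at chr6:49218013-49218161 with 1273.5 tags, 2.65 times its promoter peak. Of the 10, 8 had a promoter peak, and in each of these pairs the flanking peak was the stronger. The 10 were picked for high flanking scores, which favours this outcome, and over all pairs it held for 10.2%. *Clec11a*, a secreted lectin, and *Zfp869* had no promoter peak, and their flanking peaks had 1186 and 1093 tags.

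Gene lists were drawn up from known roles, 12 in all with 237 genes, and each is set beside the 13.4% of all genes. Cardiac transcription factors had a flanking peak at 15 of 24 genes (62.5%, 40.6 to 81.2), with 25.9 peaks per Mb of their flanks (15.6 to 40.5) against 7.88 over all genes. Sarcomere genes had one at 8 of 20 (40.0%, 19.1 to 63.9) and 24.8 per Mb (12.8 to 43.3). Both lists had flanking peaks at a higher share of genes than the background, and so had lists of other kinds given further on. The density was 27.5 per Mb (15.4 to 45.4) for glycolysis and transport, 45.3 (20.7 to 86.1) for smooth and skeletal muscle and 21.7 (7.04 to 50.6) for ribosomal proteins, and the last of these intervals includes the 7.88 of all genes. The other 7 lists had 7.27 to 16.9 per Mb, and no test was made of the lists.

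Among sarcomere genes 5 of the 11 flanking peaks whose gene had a promoter peak were the stronger of the pair, against 219 of 2155 pairs (10.2%) over all genes. The 5 belong to 3 genes, *Myh7* and *Myl2* with 2 each and *Myl3* with 1, and pairs of a gene share its promoter peak. *Myh7* had 3 peaks upstream, at 2266 bp with 422.5 tags, at 9383 bp with 240.5 tags and at 9988 bp with 309 tags, while its promoter peak had 264 tags. *Myl2*, the ventricular regulatory light chain, had 386.5 tags at 7952 bp and 284 tags at 6230 bp upstream and 235.5 tags at its promoter. *Myl3*, the ventricular essential light chain, had 572.5 tags at 9062 bp upstream, inside a neighbouring gene, and 345.5 tags at its promoter. *Ldb3*, a Z-disc protein, had 564.5 tags at 2625 bp downstream and no promoter peak. *Actc1*, cardiac actin, *Tpm1*, tropomyosin, and *Tnni1*, the embryonic troponin I, had flanking peaks of 261, 175 and 129.5 tags, all under their promoter peaks.

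Among cardiac transcription factors, *Irx5*, an Iroquois factor of ventricular patterning, had the strongest flanking peak, with 881.5 tags at 1497 bp upstream (chr8:92355980-92356128), where the noncoding gene *Crnde* starts. *Mef2d* had 771 tags at 9733 bp downstream of one of its TSSs, past the end of the gene and 200 bp from a noncoding TSS. *Srf*, the serum response factor, had 521.5 tags at 1378 bp upstream of a TSS but inside the gene, 570 bp from a noncoding TSS. *Tead1* had 391 tags at 1691 bp downstream. Of the 24 genes of this list 18 had a promoter peak, 11 of them with a flanking peak as well and 7, such as *Gata4* and *Hand1*, without. *Tbx20* and *Irx4* had neither. The 4 genes with a flanking peak alone were *Nkx2-5*, *Hand2*, *Tbx5* and *Isl1*, with 280, 265.5, 157 and 114 tags. For *Nkx2-5*, a homeobox factor of heart progenitors, it lay 5758 bp upstream and held the GATA match printed above.

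**Figure D5:**
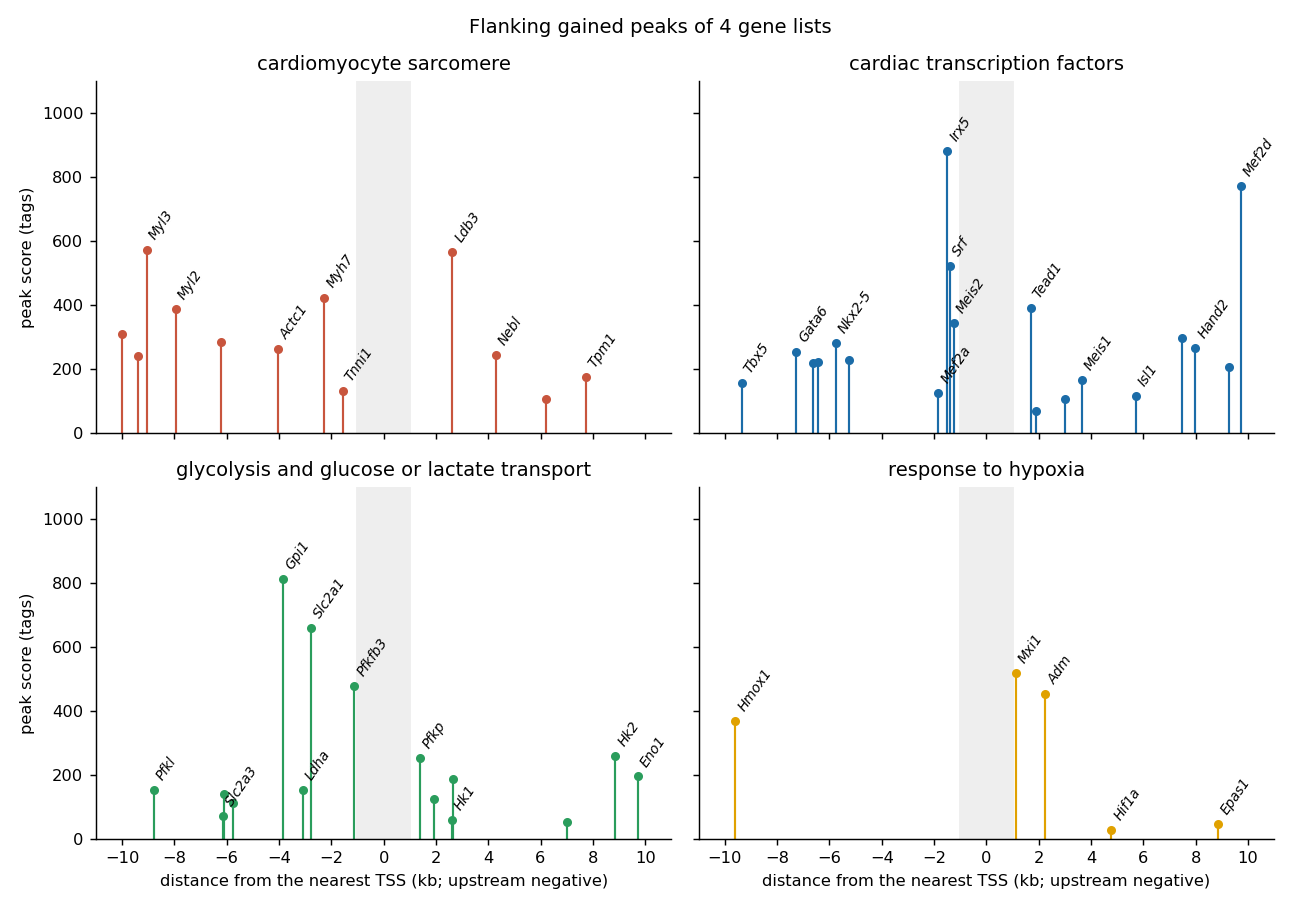
Score in tags of the flanking gained peaks of 4 gene lists against their distance in kb from the nearest TSS, upstream to the left. The grey band is the 1 kb on either side of the TSS that the rule leaves out, and the strongest peak of most genes is named; the tallest are those of *Irx5*, *Gpi1* and *Mef2d*.

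Genes of glycolysis and glucose or lactate transport had a flanking peak at 11 of 24 (45.8%, 25.6 to 67.2), and all 11 also had a promoter peak. *Gpi1*, glucose-6-phosphate isomerase, had 812.5 tags at 3838 bp upstream (chr7:34234174-34234322), 55 bp from a noncoding TSS. *Slc2a1*, the glucose transporter GLUT1, had 659 tags at 2762 bp upstream. *Pfkfb3*, which makes an activator of phosphofructokinase, had 478.5 tags at 1122 bp upstream of a TSS but inside the gene. *Hk2*, hexokinase of muscle, had 259 tags at 8859 bp downstream of a TSS, inside the gene. Its other flanking peak, with 187 tags, lay 2649 bp downstream of a different TSS, past the end of the gene. The strongest promoter peak of *Hk2* had 959 tags. In this list the promoter peak was the stronger one at every gene with a flanking peak except *Gpi1*.

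For the response to hypoxia, 5 of 20 genes (25%, 8.66 to 49.1) had a flanking peak. *Mxi1*, an antagonist of MYC, had 519 tags at 1114 bp downstream. *Adm*, the vasodilator adrenomedullin, had 451.5 tags at 2251 bp downstream (chr7:110630279-110630427) with the CTCF match printed above, more than the 261 tags of its promoter peak. *Hmox1*, heme oxygenase, had 367.5 tags at 9594 bp upstream and no promoter peak. The genes of the hypoxia-inducible factors themselves, *Epas1* and *Hif1a*, had weak flanking peaks of 46.5 and 29 tags beside promoter peaks of 565 and 880 tags. The peak of *Hif1a* had the lowest score of all members and was wholly repeat-masked. Angiogenic ligands and receptors had a flanking peak at 4 of 23 (17.4%, 4.95 to 38.8), which were *Nrp1* with 539.5 tags, *Dll4* with 292 tags, *Cxcl12* with 203.5 tags and *Angpt1* with 147 tags. Of these, *Angpt1* alone had a promoter peak.

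Lists that mark other cell types were described in the same way. Endothelial and endocardial markers had a flanking peak at 5 of 18 (27.8%, 9.70 to 53.5), with a median of 88 tags, and the strongest was that of *Nfatc1*, the regulator of endocardial cushions, with 165.5 tags. Epicardial and fibroblast markers had one at 4 of 14 (28.6%, 8.39 to 58.1), among them *Tbx18* with 185.5 tags, *Snai1* with 100.5 tags and *Wt1* with 70.5 tags. Blood and erythroid markers had one at 1 of 17 genes (5.88%, 0.149 to 28.7), *Spi1*, the factor PU.1 of white blood cells, with 278 and 187.5 tags. Neural markers, of cells the heart holds few of, had one at 2 of 15 (13.3%, 1.66 to 40.5), *Neurog2* and *Map2*. Smooth and skeletal muscle genes had one at 7 of 16 (43.8%, 19.8 to 70.1), led by *Smtn*, smoothelin, with 690 tags. The skeletal *Tnni2*, *Ckm* and *Casq1* had 204, 192.5 and 170 tags. Ribosomal protein genes, active in all cells, had one at 3 of 24 (12.5%, 2.66 to 32.4), which were *Rpl14*, *Rpl3* and *Rpl11*, although 19 of the 24 had a promoter peak. A gained promoter peak, present at 48.1% of all genes, was found at 18 of the 20 sarcomere, 18 of the 20 hypoxia, 23 of the 24 glycolysis, 16 of the 23 angiogenic and 8 of the 14 epicardial and fibroblast genes, and at 6 of the 18 endothelial, 6 of the 15 neural, 5 of the 16 smooth and skeletal muscle and 3 of the 17 blood genes. The part of cell composition in these counts was not tested.

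Genes of the SMYD family, the NuRD complex and co-repressors had a flanking peak at 7 of 22 (31.8%, 13.9 to 54.9). *Gatad2a*, a NuRD subunit, had 490.5 tags at 4904 bp upstream. *Chd3*, a NuRD remodeller, had 179.5 tags and *Smyd2*, a methyltransferase of the SMYD family, 147.5 tags. Of 13 genes that the study discusses, 2 had a flanking peak, *Hk2* and *Hmox1*, a share near the 13.4% of all genes. *Hk2* and 6 others, *Vegfa*, *Fgf9*, *Ikzf1*, *Chd4*, *Rora* and *Ppard*, had a promoter peak, as 48.1% of all genes did, and these 6 had no flanking one, and *Lef1*, *Klf1*, *Smyd1*, *Sox17* and *Igfbp3* had neither. These counts hold for the distance and nearest-TSS rule used here. They do not cover gained peaks farther away, in exons of the flanks or nearer to another gene, and the study assigned peaks to genes by its own annotation.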

How the data were processed

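ATAC-seq was performed on 2 *Smyd1-KO* and 2 WT libraries of E9.5 hearts. The authors aligned reads to mm10 with BWA-MEM, combined the libraries of a genotype, called peaks with HOMER 4.10.3 and kept those that differed at least 2-fold. ChIP-Seeker 1.20.0 served their annotation. Duplicate removal, multi-mapping and the Tn5 offset are not given in the sources used here. The deposited signal (column 5) is HOMER's tag score of each fixed-length peak, in steps of 0.5 in the gained and 0.1 in the lost list, so that scores were not compared between lists. The study's methods give a depth of 100 M (mega) reads per library, the depth behind the deposited scores is unknown, and without values per library no genotype difference was tested.

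Peaks (BED starts read as 0-based) were classed by GENCODE M21 with 93513 protein-coding TSSs. The gene of the nearest TSS named the peak, which does not show that it regulates that gene. Eligible sequence was every window of the peaks' length of a fixed tiling of GRCm38 classed by the same rule (3008104 flanking windows). Shares carry exact Clopper-Pearson intervals, differences of shares Newcombe intervals, medians order-statistic intervals and densities exact Poisson intervals, all at 95%. GC weighting used bins of 5 points. RefSeq mRNA starts came from the GRCm38.p6 annotation. Python 3.11.15, numpy 2.4.6, pandas 2.3.3 and scipy 1.17.1 were used, and the scripts were tested on simulated data.

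Named were up to 4 genes per list with the highest-scoring flanking peak, genes the study discusses, the 10 highest-scoring peaks not over 50% masked, the 10 genes with most peaks (ties by summed score) and the 2 highest-scoring peaks for CTCF, MEF2, GATA and TEAD outside chromosome 18. 1 gene that the rule names is not reported here. Others named under a list (or as examples of miRNA loci) were chosen after their values were seen. The members and lists were chosen with earlier results of these data known. Alternatives changed the TSS set, the point of measurement, the inner limit, the score threshold, repeats, noncoding TSSs, merging of neighbours, sex chromosomes and the window weighting.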

Additional observations from a re-analysis of the deposited data

How the results depend on the processing

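No paired analysis was possible because the libraries of a genotype were pooled before peak calling, and no library could be left out for the same reason. Of 108 recomputed values 79 stayed within the counting interval of the reported one (for counts, within 1.5 times). With protein-coding transcripts alone, the share with a promoter peak was 54.9%, the median score 132 tags, the ratio to the promoter peak 0.343 and the GC content 55.03%. With 1 TSS per gene, which left 2358 flanking peaks, these were 43.5%, 156.5 tags, 0.452 and 56.0%, the upstream share was 48.2%, and GATA and TEAD matches were found in 9.41% and 12.3%. An inner limit of 3 kb gave a median score of 110 tags, a ratio of 0.261 and 46 listed genes with a flanking peak in place of 72, and counting promoter peaks up to 3 kb as well gave a share of 64.9%. Peaks at or above the median score of the gained list, 1095 flanking ones, had a median of 273.5 tags, a ratio of 0.608, 59.1% GC, 36 listed genes and shares of 3.20% for MEF2, 8.49% for GATA and 12.1% for TEAD. Relative to windows, weighting by GC turned MEF2 from 0.820 to 4.72 times and moved CTCF from 88.4 to 44.3 and GATA from 1.204 to 2.69 times, and weighting by GC and CpG together, added after seeing the data, gave 4.50, 43.1 and 2.66 times. Of the other strings, GC weighting turned KLF from 1.455 to 0.694, YY1 from 1.52 to 0.279, TBX from 1.007 to 0.800, the HAND E-box from 1.02 to 0.965 and the reordered GATA string from 0.406 to 1.04 times, and with CpG added NRF1 fell from 2.04 to 0.956 and HIF from 1.19 to 0.936 times. For YY1, TBX, the HAND E-box and HIF the counting interval of the flanking share included the share of unweighted windows. Pooling leaves the spread between hearts unknown, and the score scale is HOMER's.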

Other observations

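The median gap to the nearest other gained peak was 11980 bp (11161 to 12753), another gained peak lay within 1000 bp of 193 of them (5.46%) and within 10000 bp of 1595 (45.1%). The strongest flanking peaks that were over 50% repeat-masked lay next to *1700015G11Rik*, *Sertad1* and *Dgkz*, with 813.5, 590 and 543 tags. The first of these holds the highest-scoring GATA match outside chromosome 18. The 12 flanking peaks of the lost list had 27.1 to 253.9 tags on the scale of that list, 5 of them were over 50% repeat-masked, and none held a CTCF, MEF2, GATA or TEAD match.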
